A study of Arabidopsis thaliana with 6 samples.

Results

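The 10 genes described here encode arabinogalactan proteins of the Arabidopsis root wall and cell surface. They are *AGP30*, *AGP31*, *AGP1* and *AGP4*, and the fasciclin-like genes *FLA1*, *FLA2*, *FLA8*, *FLA9*, *FLA10* and *FLA13*. They were chosen by name with their values in these data already known, and each is 1 of the 33201 rows of the deposited table, so the values below that set *an3* beside Col describe the members and are not a test of them. The table compares root tips of *an3*, a loss-of-function line of the transcriptional co-activator AN3 (GIF1), with root tips of its wild type Columbia (Col), without any other treatment. Tips of about 5 mm were cut from seedlings after 5 days of growth, with 3 biological replicates of *an3* and 3 of Col. The deposited values are FPKM, fragment numbers scaled to transcript length and to the mapped fragments of the library, which the authors give once per genotype for its 3 samples together. There are thus no values per sample, no SD can be given, and the depth of each sample is unknown. Every *an3* and Col value below is the authors' single value for a genotype.

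Arabinogalactan proteins are secreted glycoproteins in which most of the mass is sugar. Prolines of the protein backbone are hydroxylated in the endoplasmic reticulum and Golgi, and branched chains of galactose and arabinose are then built on them. Classical arabinogalactan proteins (AGP) carry a backbone rich in proline, alanine, serine and threonine, and are mostly held at the outer face of the plasma membrane by a GPI lipid anchor. AG peptides are very short relatives, lysine-rich members carry an additional basic stretch, and fasciclin-like members (FLA) join arabinogalactan regions to fasciclin domains, which are known from cell adhesion proteins of animals. In roots these proteins are known from cell expansion, from the patterning of the epidermis and from the outer surface of growing cells.

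The samples are labelled as meristematic root tissue. This label was set beside marker genes of root and shoot, and the targeted gene was checked on its own transcript. *AN3* (AT5G28640) had 2.55 FPKM in *an3* against 21.5 FPKM in Col, so 11.9% of the Col level was left. The root cap gene *SMB* had 11.2 FPKM in *an3* and 10.1 FPKM in Col, and the ground tissue regulator *SCR* had 21.2 FPKM in *an3* and 25.1 FPKM in Col. The 6 meristem genes of the marker list summed to 58.9 FPKM in *an3* and 62.1 FPKM in Col. Its 7 endodermis genes summed to 2402 FPKM in *an3* and 1917 FPKM in Col. Its 7 root hair genes summed to 1046 FPKM in *an3* and 1300 FPKM in Col. These values thus do not show tips of meristem cells alone. The 4 shoot genes of the marker list summed to 10.4 FPKM in *an3* and 30.8 FPKM in Col, with *RBCS2B* listed at 0 in both genotypes. Most of these sums came from *CAB1*, with 8.63 FPKM in *an3* and 27.1 FPKM in Col. *RBCS1A* had 1.67 FPKM in *an3* and 3.55 FPKM in Col. Both were thus past 2-fold lower in *an3*, with log2 ratios (*an3* over Col) of -1.64 for *CAB1* and -1.04 for *RBCS1A*. The rows of a single locus that averaged 1 FPKM or more over *an3* and Col numbered 16971, and the median of their log2 ratios (*an3* over Col, 0.1 FPKM added to each value) was -0.0033. In bulk tips, fewer cells of a type and less RNA per cell cannot be told apart.

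*AGP30* and *AGP31* are built differently from the other members. Both belong to the non-classical arabinogalactan proteins, in which a proline-rich region is followed by a domain shared with the pollen allergen Ole e 1. The stretches below show the 30 codons with the most proline codons in each coding sequence, from RefSeq (TAIR10.1), read 5′ to 3′ on the coding strand, with proline codons in capitals and codons counted from the start codon. Both genes lie on the minus strand of their chromosome and have 2 coding exons. The stretches are shown because they let the backbone of the gene with the largest ratio be compared with that of its closest relative in the list.
AGP30: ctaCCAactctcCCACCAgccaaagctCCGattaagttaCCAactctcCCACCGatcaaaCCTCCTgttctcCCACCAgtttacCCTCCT
AGP31: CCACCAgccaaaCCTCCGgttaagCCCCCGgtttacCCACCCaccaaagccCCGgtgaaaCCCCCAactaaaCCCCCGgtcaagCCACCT
The *AGP30* stretch runs from codon 74 to codon 103 and holds 13 proline codons, and the *AGP31* stretch runs from codon 82 to codon 111 and holds 15. In both, proline codons mostly come in pairs, set off by codons for other residues. Proline took 14.6% of the 239 codons of *AGP30* and 25.1% of the 359 codons of *AGP31*, against a median of 4.55% over 27392 coding sequences. Aligned end to end, the coding sequences of *AGP30* and *AGP31* were identical in 49.0% of 1080 columns, and in 73.5% of the 720 columns in which both had a base. Members of different build scored alike in this alignment. *AGP30* and *FLA9* were identical in 47.6% of 821 columns, and *AGP1* and *FLA8* in 81.1% of the columns in which both had a base. These shares alone thus do not show that *AGP30* and *AGP31* are related. No run of 50 bases of the *AGP30* transcript occurred in a transcript of another gene, on either strand, and the same held for *AGP31*.

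*AGP30* (AT2G33790, chromosome 2) had the largest ratio of *an3* over Col among the 10 members, while the difference in FPKM was larger for *FLA9*, at 645.8, than for *AGP30*, at 566.4. It is known as a gene of the root, and its loss alters root regeneration and the response to abscisic acid. *AGP30* had 995.5 FPKM in *an3* root tips, against 429.1 FPKM in Col root tips. The level in *an3* was thus 2.32 times that in Col, a log2 ratio of 1.21. Of the 16971 rows averaging 1 FPKM or more, 116 had a larger log2 ratio (0.684%). Among the 1622 rows averaging 100 FPKM or more, 4 had a larger one, and among the 536 rows averaging 300 FPKM or more, none had.

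*AGP31* (AT1G28290, chromosome 1), known for its binding to pectic galactans and its repression by methyl jasmonate, stood at almost the same level in both genotypes. It had 1247 FPKM in *an3* and 1226 FPKM in Col, a log2 ratio of 0.02. The order of the pair by level was the same in both genotypes, with *AGP31* above *AGP30*. The gap between them was narrower in *an3*, where *AGP30* reached 995.5 FPKM beside 1247 FPKM for *AGP31*, than in Col, where it stood at 429.1 FPKM beside 1226 FPKM. FPKM is scaled to transcript length so that levels of different genes can be set side by side. The ratio of *an3* over Col still declined with transcript length across the table, as described below. Without replicates it is not known how far these levels vary.

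**Figure D1:**
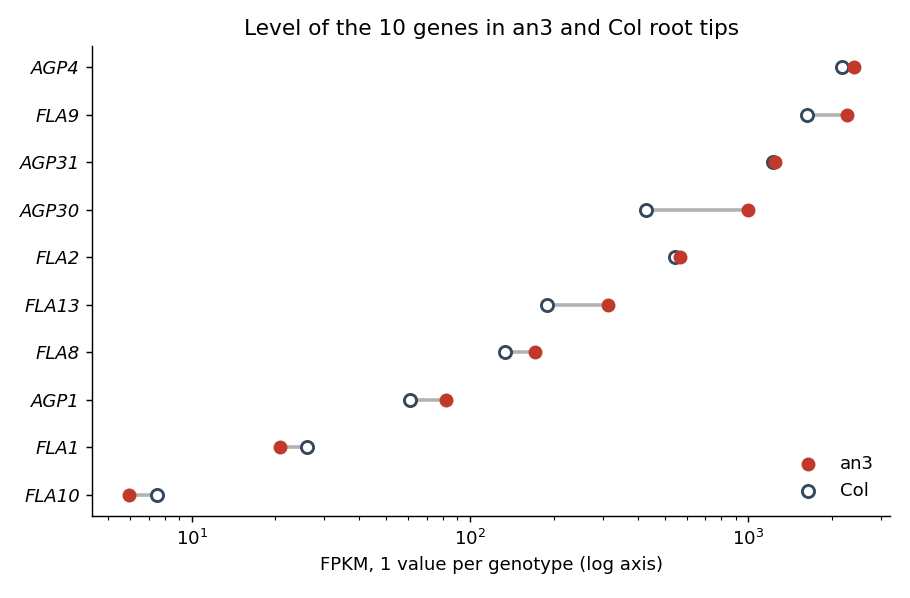
FPKM of the 10 genes in *an3* (filled red) and Col (open) root tips on a log axis, 1 value per genotype and gene, without error since the table gives none, ordered by the level in *an3*. *AGP30* has the widest gap on this axis, with 995.5 FPKM in *an3* and 429.1 FPKM in Col, while the *AGP31* symbols nearly coincide and *FLA1* and *FLA10* lie lower in *an3*.

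The 2 classical members, *AGP1* and *AGP4*, differed in level and in ratio. *AGP4* (AT5G10430, chromosome 5), also called *JAGGER* and known from the block that keeps further pollen tubes out of a fertilized ovule, was the most abundant of the members in both genotypes. It had 2402 FPKM in *an3* and 2174 FPKM in Col, a log2 ratio of 0.14. *AGP1* (AT5G64310, chromosome 5) had 81.9 FPKM in *an3* and 60.6 FPKM in Col, which is 1.35 times as much in *an3* and a log2 ratio of 0.43. Of the runs of 50 bases in the *AGP4* transcript, 33.2% were also present in AT5G10435, a gene on the opposite strand that overlaps it and has no row in the table. Whether the authors' counting used strand was not found in the sources used, so reads of these genes may not have been told apart.

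Both classical genes encode a backbone rich in proline, alanine, serine and threonine, as described above for their class. The stretch of *AGP4* with the most proline codons is shown as the contrast to *AGP30*, and that of *AGP1* beside it.
AGP4: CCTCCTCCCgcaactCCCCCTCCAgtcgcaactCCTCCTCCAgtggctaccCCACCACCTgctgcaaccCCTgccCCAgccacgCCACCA
AGP1: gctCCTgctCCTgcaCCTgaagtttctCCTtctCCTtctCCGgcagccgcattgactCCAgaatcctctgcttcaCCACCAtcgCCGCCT
Of the 30 codons of *AGP4* from codon 32 to codon 61, 16 were for proline and 7 for alanine. Of those of *AGP1* from codon 48 to codon 77, 11 were for proline, 7 for alanine and 7 for serine. Proline, alanine, serine and threonine took 72.6% of the codons of *AGP4* and 59.5% of those of *AGP1*, against 34.3% in *AGP30* and a median of 24.9% over all coding sequences. Only 0.245% of coding sequences were above 50% in this measure.

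**Figure D2:**
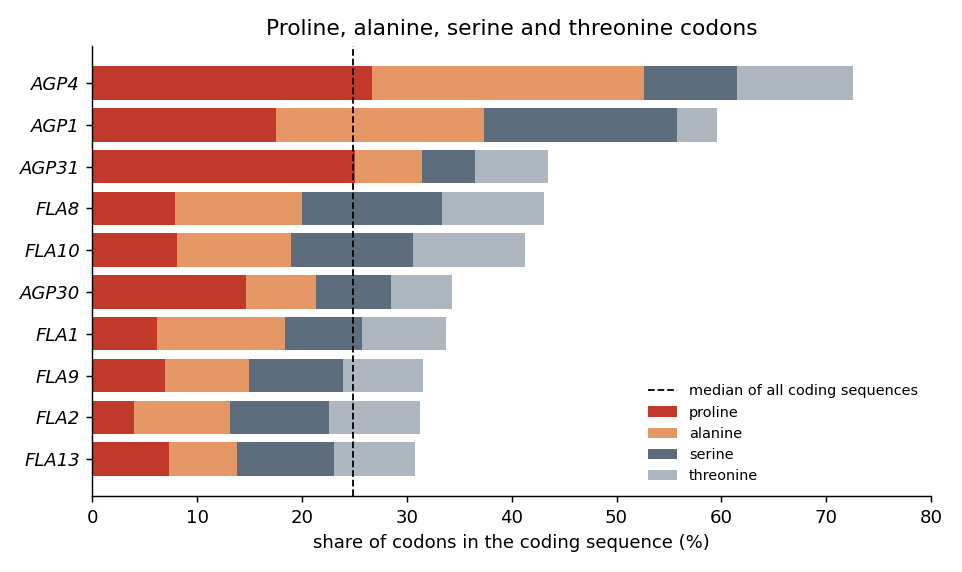
Share of codons for proline, alanine, serine and threonine in the coding sequence of each of the 10 genes, stacked, in percent of all codons, with the median of all coding sequences as a dashed line. All 10 bars reach past the median of 24.9%, *AGP4* is longest at 72.6%, and *AGP30*, at 34.3%, owes much of its bar to proline.

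The 6 fasciclin-like members lay on both sides of 0. *FLA13* (AT5G44130, chromosome 5) had 313.7 FPKM in *an3* against 188.6 FPKM in Col, 1.66 times as much and a log2 ratio of 0.73. *FLA9* (AT1G03870, chromosome 1), the most abundant fasciclin-like gene here, had 2266 FPKM in *an3* and 1620 FPKM in Col, a log2 ratio of 0.48. These are the most similar members after *FLA8* and *FLA10*, with identical bases in 76.6% of the 753 columns of their aligned coding sequences, and both were higher in *an3*. They shared no run of 50 bases. The stretch of *FLA13* with the most proline codons, from codon 168 to codon 197, is shown because *FLA13*, beside *AGP30*, was past 1.5-fold.
FLA13: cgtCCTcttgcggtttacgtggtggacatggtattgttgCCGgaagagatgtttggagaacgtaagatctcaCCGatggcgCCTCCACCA
The stretch holds 6 proline codons, and proline took 7.29% of the 247 codons of *FLA13* and 6.88% of the 247 codons of *FLA9*. *FLA13* lies on the plus strand and *FLA9* on the minus strand, each with 1 coding exon.

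*FLA8* (AT2G45470, chromosome 2), also named *AGP8*, had 170.7 FPKM in *an3* and 133.2 FPKM in Col, a log2 ratio of 0.36. *FLA10* (AT3G60900, chromosome 3), its closest relative in the list, lay on the other side of 0. It had 5.94 FPKM in *an3* and 7.50 FPKM in Col, a log2 ratio of -0.33. Their coding sequences were identical in 81.1% of 1288 columns, and the proline-rich stretches that are shown here lie at corresponding places of the genes, from codon 340 to codon 369 of *FLA8* and from codon 345 to codon 374 of *FLA10*.
FLA8: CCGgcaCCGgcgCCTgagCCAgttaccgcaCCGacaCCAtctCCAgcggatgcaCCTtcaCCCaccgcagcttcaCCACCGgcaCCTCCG
FLA10: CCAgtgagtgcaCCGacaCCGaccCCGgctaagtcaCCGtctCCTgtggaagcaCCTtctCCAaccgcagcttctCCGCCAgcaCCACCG
The stretch of *FLA8* holds 13 proline codons and that of *FLA10* 12. Even so, only 4 runs of 50 bases were shared between the transcripts, which is 0.22% of those of *FLA8* and 0.21% of those of *FLA10*. The genes thus stood far apart in level and on opposite sides of 0 in ratio although their coding sequences are alike.

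*FLA2* and *FLA1* were the remaining fasciclin-like members. *FLA2* (AT4G12730, chromosome 4) had 567.9 FPKM in *an3* and 544.1 FPKM in Col, a log2 ratio of 0.06. *FLA1* (AT5G55730, chromosome 5), known from shoot regeneration in tissue culture, had 20.8 FPKM in *an3* and 25.9 FPKM in Col, a log2 ratio of -0.31. The 2 members that were lower in *an3*, *FLA1* and *FLA10*, were also the 2 least abundant of the 10 in either genotype. Over the 10 members the order by level was *AGP4*, *FLA9*, *AGP31*, *AGP30*, *FLA2*, *FLA13*, *FLA8*, *AGP1*, *FLA1* and *FLA10* in *an3*, and in Col *FLA2* stood above *AGP30*. Which neighbours in this order differ beyond the spread of replicates cannot be told from single values.

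As a group, 8 of the 10 members had a log2 ratio above 0, with a median of 0.25, and all 10 averaged more than 1 FPKM. Of all rows 49.4% lay above 0, with a median of -0.0033. Abundant rows leaned higher, with 64.0% above 0 among the 1622 rows averaging 100 FPKM or more. Among the 536 rows averaging 300 FPKM or more, 72.2% lay above 0. Of the 10 members, *AGP30* and *FLA13* were past 1.5-fold higher, the limit used here in place of a test, and none was past 1.5-fold lower. Of the 16971 rows, 3.92% were past 1.5-fold higher and 3.09% past it lower, 7.01% together. At a limit of 2-fold, *AGP30* alone among the members was past it, against 1.15% of all rows higher and 0.79% lower, 1.94% together. At a limit of 25% more in the higher genotype, *AGP30*, *FLA13*, *FLA9*, *AGP1* and *FLA8* were past it higher and *FLA10* lower, against 11.4% of all rows higher and 10.3% lower, 21.7% together. Since the members were named with these ratios in view, nothing is read from their count. The level of the 10 genes summed to 8072 FPKM in *an3* and 6409 FPKM in Col.

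The other named arabinogalactan protein genes were taken from the reference names by symbol, in a list drawn up with earlier results of these data known, so their counts too are a description. Of 26 further AGP genes, 23 averaged 1 FPKM or more. Of these 23, 21 had a log2 ratio above 0 and 2 below, with a median of 0.35 and a range from -0.02 to 0.71, while 49.4% of all rows lay above 0. The limit of 1.5-fold was passed by *AGP14* and *AGP6*, both higher, and by none in the other direction, beside 3.92% of all rows higher and 3.09% lower. *AGP6*, at 0.805 FPKM in Col, averaged 1 FPKM or more only through its value in *an3*, so its place in this count says little.

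The most abundant of them were as high as the leading members. *AGP2*, a classical gene, had 3364 FPKM in *an3* and 2353 FPKM in Col, a log2 ratio of 0.52. *AGP24*, an AG peptide gene, had 3141 FPKM in *an3* and 2466 FPKM in Col, and *AGP9*, a classical gene with 34.6% proline codons, had 2715 FPKM in *an3* and 2069 FPKM in Col. All 3 were higher in *an3*, by less than 1.5-fold.

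The AG peptide genes lay on 1 side of 0. All 10 that averaged 1 FPKM or more had a log2 ratio above 0, from 0.09 for *AGP12* to 0.60 for *AGP14*, with a median of 0.23. Of all rows, 49.4% lay above 0. The transcripts of these 10 genes are short, with a median of 739 bases, and short transcripts lay mostly above 0 across the whole table, as described below. *AGP14* (AT5G56540), whose loss is known to lengthen root hairs, had 2016 FPKM in *an3* and 1327 FPKM in Col, 1.52 times as much in *an3*. Among 10 further classical genes 8 lay above 0, with a median of 0.43, and the 2 below it were *AGP3* at -0.0023 and *AGP10* at -0.02. The 3 lysine-rich genes *AGP17*, *AGP18* and *AGP19* had log2 ratios from 0.25 to 0.52.

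Genes known from pollen were near the floor of the table. *AGP6* had 1.38 FPKM in *an3* and 0.805 FPKM in Col, so its log2 ratio of 0.71 rests on very low values. *AGP11*, which acts with *AGP6* in pollen, had 0.133 FPKM in *an3* and was listed at 0 in Col. *AGP40* had 0.229 FPKM in *an3* and was listed at 0 in Col, and *AGP23*, *FLA3* and *FLA14* were listed at 0 in both genotypes.

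Among 14 further FLA genes, 9 averaged 1 FPKM or more, of which 6 had a log2 ratio above 0 and 3 below. Their median was 0.20 and none was past 1.5-fold. Of all rows, 49.4% lay above 0, 3.92% were past 1.5-fold higher and 3.09% past it lower. *FLA7* led them with 521.8 FPKM in *an3* and 412.2 FPKM in Col. *FLA18* had 125.4 FPKM in *an3* and 126.8 FPKM in Col, and *FLA16* had 126.1 FPKM in *an3* and 102.1 FPKM in Col. *FLA4*, also named *SOS5* and known from root growth on salt, had 14.1 FPKM in *an3* and 17.4 FPKM in Col, a log2 ratio of -0.31, close to that of *FLA1* and *FLA10*. *FLA11*, known like *FLA12* from the secondary walls of stems, had 14.3 FPKM in *an3* and 10.8 FPKM in Col, and *FLA12* had 7.68 FPKM in *an3* and 6.12 FPKM in Col. The other 5 genes averaged less than 1 FPKM. *AGP10*, *AGP16*, *AGP19*, *AGP21*, *AGP26*, *FLA3*, *FLA14* and *FLA16* share between 16.3% and 100% of their 50-base runs with a gene on the opposite strand, and *FLA11* shares 0.81%. Their values, and the counts above that include them, carry the same doubt as those of *AGP4*.

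**Figure D3:**
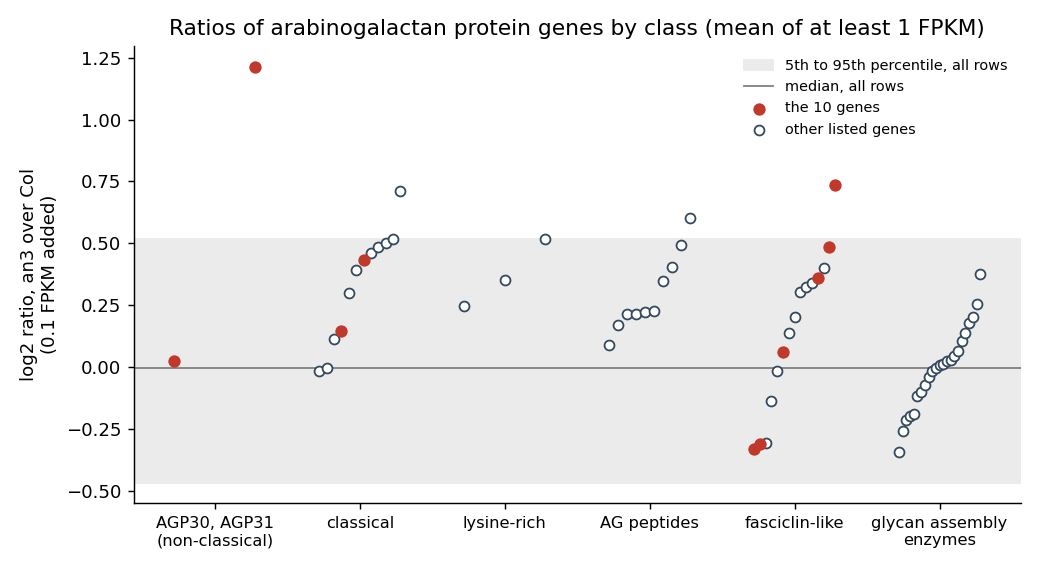
Log2 ratio of *an3* over Col (0.1 FPKM added) of genes averaging 1 FPKM or more, by class, with the 10 genes filled and other listed genes open, beside the median (line) and the 5th to 95th percentile (band, -0.47 to 0.52) of all 16971 rows. Classical, lysine-rich and AG peptide genes lie almost wholly above 0, FLA genes spread to both sides, and glycan assembly enzymes centre near 0.

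The genes for the enzymes that build and anchor the glycoproteins centred near 0. Of 25 listed genes 23 averaged 1 FPKM or more, and of these 12 had a log2 ratio above 0 and 11 below. Their median was 0.0076 and none was past 1.5-fold, beside 7.01% of all rows in either direction. Of all rows, 49.4% lay above 0. The prolyl hydroxylase genes *P4H5* and *P4H2*, which act on the backbone and on extensins, were the most abundant, with 355.5 FPKM in *an3* and 381.6 FPKM in Col for *P4H5* and 229.5 FPKM in *an3* and 248.8 FPKM in Col for *P4H2*. *FUT4*, a fucosyltransferase gene, had 83.3 FPKM in *an3* and 81.9 FPKM in Col. The 8 genes for the galactosyltransferases that start the sugar chain had log2 ratios from -0.34 to 0.05, and the 4 genes of GPI anchor synthesis and transfer from 0.03 to 0.38.

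Across the whole table the ratio declined with the length of the transcript, and this touches the short AGP genes directly. Over 20 bins of transcript length, with 844 to 845 rows each, the median log2 ratio was 0.16 in the bin of 108 to 758 bases, 0.12 in that of 914 to 1027 bases, -0.0041 in that of 1829 to 1933 bases and -0.20 in that of 3792 to 16593 bases. Log2 ratios lay above 0 in 70.8% of the shortest and 9.1% of the longest transcripts. The AGP genes outside the 10 members had a median transcript length of 830 bases, the FLA genes outside them 1746 bases and the glycan assembly genes 1897 bases. Level went with the ratio as well, with a median log2 ratio of 0.05 over 1086 rows of 100 to 300 FPKM and of 0.11 over the 81 rows of 1000 FPKM or more.

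Set against the median of its own length bin, the log2 ratio of *AGP30*, whose transcript has 1137 bases, was 1.12, and that of *FLA13* was 0.64. *FLA9* was then at 0.39, *FLA8* at 0.36, *AGP1* at 0.31 and *AGP4* at 0.02. *AGP31* was at -0.03, so that 7 of the 10 members lay above their bin's median. *FLA1* was at -0.33 and *FLA10* at -0.31. The other AGP genes had a median of 0.19 over their bins, with 19 of 23 above, beside 49.9% of all rows. *AGP30* and *FLA13* were past 1.5-fold higher by this measure too, as were 3.15% of all rows, while 3.2% were past it lower. The median of the AG peptides was 0.08 after this centring, with 9 of 10 above, and that of the further classical genes 0.33, with 7 of 10 above. *AGP14* was then at 0.44 and no longer past 1.5-fold. The other FLA genes had a median of 0.14, with 7 of 9 above. These length-centred values were added after the data had been seen.

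**Figure D4:**
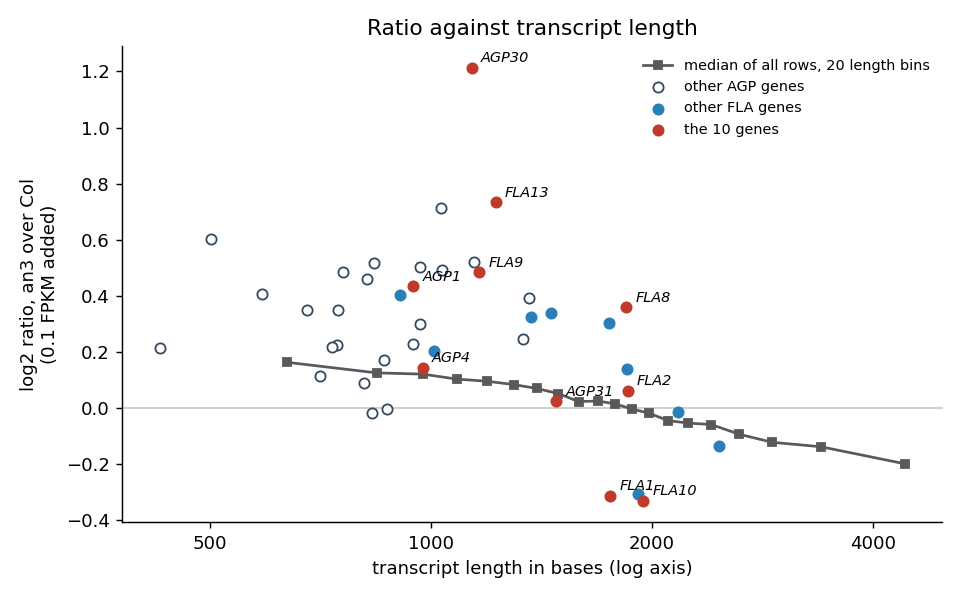
Log2 ratio of *an3* over Col (0.1 FPKM added) against transcript length on a log axis, for the 10 genes (red, named), other AGP genes (open) and other FLA genes (blue), with the median of all rows in 20 length bins (squares). The bin medians run from 0.16 in the shortest to -0.20 in the longest bin, and *AGP30* at 1.21 and *FLA13* at 0.73 stand well above that line while *AGP31* and *AGP4* lie next to it.

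Markers of root cell types differed between the genotypes as well. All 7 root hair genes of the marker list had a log2 ratio below 0, with a median of -0.37, and their level summed to 1046 FPKM in *an3* and 1300 FPKM in Col. Of 7 endodermis genes 6 had a log2 ratio above 0, with a median of 0.32, and their level summed to 2402 FPKM in *an3* and 1917 FPKM in Col. Of all rows, 49.4% lay above 0. Against their length bins the median of the root hair genes was -0.34, with 0 of 7 above, and that of the endodermis genes 0.22, with 6 of 7 above, beside 49.9% of all rows. The 4 epidermis genes, among them *GL2*, which marks non-hair cells, had a median of -0.19, and *GL2* had 26.0 FPKM in *an3* and 27.7 FPKM in Col. No marker of these 3 lists was listed at 0. Of 6 meristem genes 3 lay above 0, with a median of -0.03 and a sum of 58.9 FPKM in *an3* and 62.1 FPKM in Col. Against their length bins 2 of the 6 lay above. *PLT1*, at 0.944 FPKM in Col, averaged 1 FPKM or more only through its 1.47 FPKM in *an3*. Its log2 ratio of 0.59 thus says little. The 3 of 4 root cap genes that averaged 1 FPKM or more had a median of 0.15. Of 4 vascular genes, *WOL* and *TMO5* averaged 1 FPKM or more, with log2 ratios of -0.11 and -0.0082, and *VND7* and *APL* lay below that level, with log2 ratios of 0.34 and 0.15. The part of cell type makeup in the values of the arabinogalactan protein genes was not tested.

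The rows most like *AGP30* were sought by distance between log2 levels in *an3* and Col, that is over only 2 values each. The 5 nearest were AT3G19430, annotated as related to late embryogenesis abundant proteins, with 765.6 FPKM in *an3* and 406.6 FPKM in Col, then AT1G77330, annotated as a member of the family of oxygenases that use 2-oxoglutarate and iron, the ubiquitin gene *UBQ11*, the vacuolar aquaporin gene *TIP2;3*, and AT2G23120. Their log2 ratios ran from 0.47 for AT2G23120 to 0.91 for AT3G19430. That all lay below *AGP30* follows from its rank, given above, among rows averaging 300 FPKM or more. Values of *UBQ11* are uncertain, since ubiquitin genes share near-identical repeats.

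Promoter windows of the members, 250 bases before to 50 bases after the annotated start, were searched on both strands for 3 motifs. TGTCAG, a motif known to be bound by GRF proteins, the partners of AN3, was in none of the 10 windows, in none of those of the 40 other AGP and FLA genes, and in 6.57% of 27443 windows of all protein-coding genes. The G-box CACGTG was in none of the members' windows and in 1 of the other 40, against 7.68% of all. ACGTG, the core of elements of the abscisic acid response, which every G-box also contains, was in the window of *FLA1* alone among the members and in 7 of the other 40, against 26.7% of all. No match in a window says only that these letters do not occur there.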

How the data were processed

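Libraries of *an3* and Col root tips were read single-end over 100 bp. The authors worked through the TuxNet interface, in which fastq-mcf of ea-utils prepares the reads, HISAT2 aligns them and Cufflinks estimates expression. Versions, genome build and annotation were not given in the sources used here. FPKM values were deposited by the authors as 1 estimate per genotype over its 3 samples, scaled to length and library, so depth is unknown. The deposited table also holds the authors' log2 fold change and their q-value, an adjusted p-value of the same comparison, which were not used. With 1 value per genotype no test could be run.

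The members and lists were chosen with earlier results of these data known. The rule for named genes takes the 10 members, *AN3*, the markers, the 5 rows nearest to *AGP30*, and of each list the 3 most abundant genes and those past 1.5-fold. Other AGP and FLA genes, and the length bins, were named after their values were seen. Log2 ratios are log2 of (*an3* + 0.1 FPKM) over (Col + 0.1 FPKM), which understates changes of low genes. The 282 rows of several loci were left out. AGP and FLA genes were taken by symbol from RefSeq (TAIR10.1), which lists 97.9% of the loci. Its annotation also gave the length of the longest transcript (for 99.6% of rows), coding sequences and promoter windows, matched by locus. Codons stand in for the protein features first planned, since protein sequences were not used here. Coordinates are not printed since the authors' build is not known. Coding sequences were aligned globally with Biopython 1.88. Python 3.11.15, pandas 2.3.3 and numpy 2.4.6 were used, and the scripts were tested on simulated data.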

Additional observations from a re-analysis of the deposited data

How the results depend on the processing

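The single value per genotype is the main limit, since neither the spread between replicates nor depth is known. No paired analysis was possible because the table holds no values per sample, and leaving out each replicate was not run for the same reason. The *an3* over Col ratio of each member moved by less than 1.5-fold in all 50 alternative values. These used no pseudocount, 1 FPKM added, the median ratio set to 1, and 2 centrings, by length or by length and level. Both centrings were added after the data had been seen. Only *AGP30* and *FLA13* had ratios past 1.5-fold, so the other members would meet this limit even if their difference vanished. The log2 ratio of *AGP31* was -0.03 when centred by length and -0.04 by length and level. That of *AGP4* went from 0.14 to 0.02 when centred by length. With a limit of 25% more, 6 members, 12 other AGP genes, 3 other FLA genes, 2 glycan assembly genes and 21.7% of all rows were past it. With a limit of 2-fold these were 1 member (*AGP30*), 0 other AGP genes and 1.94% of all rows. Without a minimum level 4 other AGP genes, 1 other FLA gene and 9.46% of all rows were past 1.5-fold. The genes that this setting added were *AGP40*, *AGP11* and *FLA21*. Each was listed at 0 in 1 genotype and at 0.229 FPKM or less in the other, so these calls rest on the 0.1 FPKM added. With a minimum of 5 FPKM, 1 other AGP gene and 3.93% of all rows were past 1.5-fold. When centred by length, 1 other AGP gene and 6.34% of all rows were past it. That gene was *AGP6*, whose values are near the floor. The other 25 summary values stayed within 1.5 times their main value or were counts of 0 that stayed at 0. Those counts were of other FLA genes and glycan assembly genes. At a limit of 2-fold or a minimum of 5 FPKM a count of 0 could not rise, so nothing is read from it there.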

Other observations

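The 50 AGP and FLA genes, members included, held 3.08% of the summed FPKM of *an3* and 2.52% of that of Col. Of the 42 that averaged 1 FPKM or more, 35 had a log2 ratio above 0, beside 49.4% of all rows. Above the median of their length bin lay 33, beside 49.9% of all rows. The 42 include the members, which were chosen with their ratios known. They also include *AGP6*, which averaged 1 FPKM or more only through its value in *an3*. The counts are thus a description and not a test of the family. When each row was set against rows alike in both length and level, 33 of the 42 lay above, with a median of 0.19, and *AGP30* was at 1.11. These values were computed after the data had been seen, and no explanation for the decline of the ratio with length was tested.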
